A study of Mus musculus with 12 samples.

Results

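The genes of the HoxB and HoxD clusters were described in bulk RNA-seq of 3 mouse embryonic fibroblast lines. Members were the entries whose symbol is Hoxb or Hoxd followed by a number and whose raw counts summed to at least 60 over 12 libraries. Of 15156 entries with a gene identifier, 12 carried such a symbol and 9 reached the minimum: Hoxb2 to Hoxb9, 8 genes in all, and Hoxd8. The member with the lowest sum was Hoxb2, with 360 counts, and the genes under the minimum were Hoxd9 with 50, Hoxd4 with 41 and Hoxd3 with 11. A further 7 of the 19 Hoxb and Hoxd genes in the annotation, Hoxb1, Hoxb13, Hoxd1 and Hoxd10 to Hoxd13, were not analysed here. Fibroblasts of all 3 lines carried the immortalising E6 protein of a human papillomavirus, which targets p53 for degradation, and were kept 24 h in DMEM with 10% fetal bovine serum. Wild-type line 1 and wild-type line 2, called clones in the titles, were p27+/+, and 1 further line was labelled p27-/-. The p27 protein, encoded by Cdkn1b, inhibits cyclin-dependent kinases. Each line gave 4 libraries, from experiments 1 to 4. With 1 line of the null genotype, genotype and line cannot be told apart. Whether the experiments were separate cultures is not in the labels, and a p-value here reflects library-to-library spread that could be technical.

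Hox genes encode homeodomain transcription factors that give cells their position along the head-to-tail axis. In each mouse cluster the genes lie in a row and are transcribed in the same direction. Genes at the 3′ end of the row, with low numbers, are switched on earlier and closer to the head than genes at the 5′ end, with high numbers. Fibroblasts in culture keep much of the Hox pattern of the body site they came from. Polycomb proteins hold silent clusters closed, and trithorax proteins, retinoic acid and the TALE homeodomain partners of the PBX and MEIS families are tied to active ones.

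In GRCm39 the annotated HoxB cluster spans 174 kb on chromosome 11, from 96085106 to 96259082, and the HoxD cluster 96.8 kb on chromosome 2, from 74498654 to 74595486. All members are protein-coding genes on the plus strand. Hoxb9 (96162150 to 96167421) is the member at the 5′ end, followed by Hoxb8 (96172731 to 96176160), Hoxb7 (96177449 to 96180988), Hoxb6 (96183280 to 96192395) and Hoxb5 (96194162 to 96196947). Hoxb4 (96209093 to 96212464), Hoxb3 (96214152 to 96238756) and Hoxb2 (96241351 to 96244838) lie at the 3′ end, and Hoxd8 lies at 74534959 to 74538297. The RefSeq promoter table held 3 of the 9 members. They are shown because Hoxb4 and Hoxb8 stand for the 3′ and middle parts of HoxB, whose count ratio separated the line labelled p27-null from line 1, and Hoxd8 is the member from HoxD. Each line gives the 250 bases before the transcript start on the plus strand, 5′ to 3′, with motif matches in capitals. The RefSeq sequences, from its GRCm38.p6 table, each matched GRCm39 once, at chr11:96208843-96209092, chr11:96172481-96172730 and chr2:74534709-74534958.
Hoxb4: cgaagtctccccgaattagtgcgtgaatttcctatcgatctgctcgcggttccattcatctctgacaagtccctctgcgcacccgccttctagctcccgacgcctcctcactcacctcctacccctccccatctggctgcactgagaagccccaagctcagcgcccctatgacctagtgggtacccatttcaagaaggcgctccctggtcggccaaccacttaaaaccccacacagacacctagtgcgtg
Hoxb8: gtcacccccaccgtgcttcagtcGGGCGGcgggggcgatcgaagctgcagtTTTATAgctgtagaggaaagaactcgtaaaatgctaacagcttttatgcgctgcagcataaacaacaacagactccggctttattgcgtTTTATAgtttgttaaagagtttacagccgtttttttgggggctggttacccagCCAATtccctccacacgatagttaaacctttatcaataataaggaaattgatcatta
Hoxd8: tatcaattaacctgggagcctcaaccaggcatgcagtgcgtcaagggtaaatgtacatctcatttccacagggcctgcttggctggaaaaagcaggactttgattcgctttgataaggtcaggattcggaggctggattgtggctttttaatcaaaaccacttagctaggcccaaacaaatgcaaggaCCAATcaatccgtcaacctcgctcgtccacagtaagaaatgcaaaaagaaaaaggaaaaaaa
The motifs sought on both strands, from 250 bases before to 50 after the start, were the TATA box (TATAAA), the CCAAT box, the GC box (GGGCGG), a joint PBX and HOX site (TGATTNAT), a homeodomain core (TAATTA), the E-box (CACGTG) and the DR5 retinoic acid element. Hoxb8 held a GC box at -227 from the start, TATA boxes on the minus strand at -199 and -110, and a CCAAT box at -57. Hoxd8 held a CCAAT box at -62, Hoxb4 held none of the motifs, and no matches overlapped. Over 32544 RefSeq promoters of the same length these motifs were found in 13.6% (TATA box), 37.4% (CCAAT box), 35.9% (GC box), 3.23% (PBX and HOX site), 5.29% (homeodomain core), 7.17% (E-box) and 0.00922% (DR5 element). CpG dinucleotides numbered 14 in the Hoxb4 window, 13 in that of Hoxb8 and 6 in that of Hoxd8, where the median promoter held 7. These matches describe letters and no binding was measured.

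Libraries held 15.4 to 24.0 M counts in named genes. The lines separated along principal components 1 and 2 (46.1% and 36.7% of the variance). Along component 3 (7.30%), experiment 1 of the p27-null line and of line 1 stood apart, with 1.06% and 1.33% of counts in mitochondrial genes against 1.74 to 3.09% in the other 10. Cdkn1b was at 83.7 to 118 CPM (counts per 1 M counts) in the p27-null libraries, at 86.8 to 101 in line 1 and at 88.6 to 120 in line 2. A coding deletion can leave most of this transcript, so these counts do not check the label, and the group is called the line labelled p27-null. Xist, which coats and silences an X chromosome, was at 351 to 900 CPM in line 1, 543 to 870 in line 2 and 0 to 0.229 in the line labelled p27-null, and the Y gene Ddx3y was at 13.8 to 60.6 CPM in the last and at no more than 0.113 in the others. All 9 fibroblast markers were in the table. Their summed levels were 11430 to 16930 CPM in line 1, 17600 to 23060 in line 2 and 14380 to 18700 in the line labelled p27-null. Between the wild-type lines, 6 of the 9 were higher and 0 lower in line 2 (edgeR adjusted p under 0.05), beside 20.7% and 21.9% of all genes.

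HoxB was active in 2 of the 3 lines and nearly silent in wild-type line 2. The 8 HoxB members together were at 125, 119, 123 and 103 CPM in line 1 and at 56.6, 38.7, 66.7 and 62.6 CPM in the line labelled p27-null. In line 2 they were at 0.207, 0.171, 0.664 and 0.959 CPM, which is 3 to 17 counts a library. The 3 lines did not overlap, with line 1 highest and line 2 lowest. In bulk RNA, fewer cells that use the cluster and less RNA per cell cannot be told apart.

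**Figure D1:**
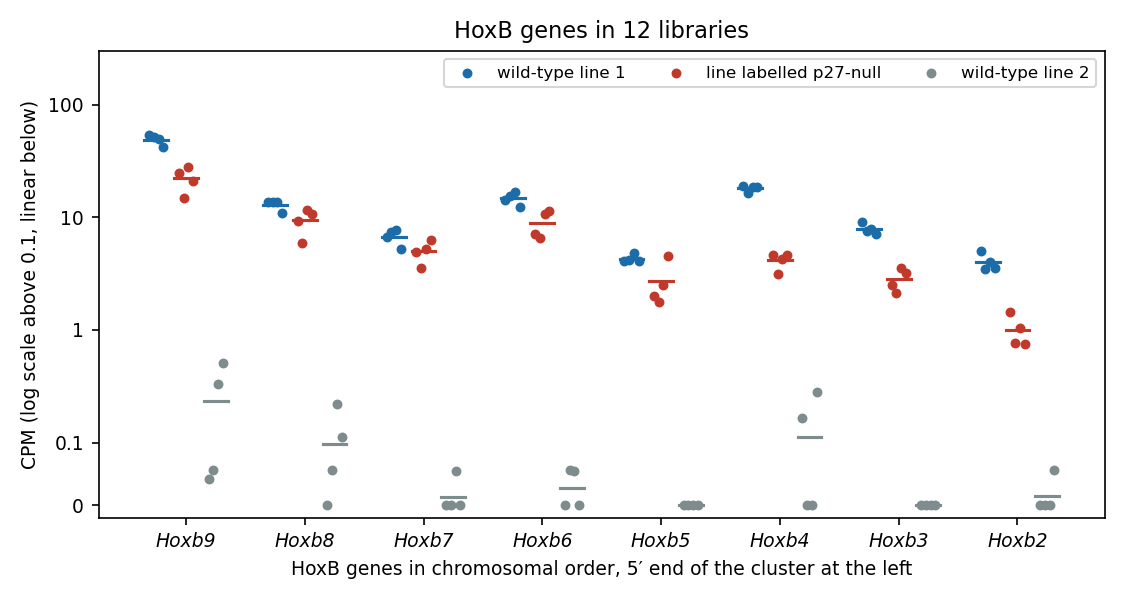
Level of each HoxB member in CPM (log scale above 0.1, linear below) in 4 libraries of each line, with a bar at the mean, in chromosomal order. Hoxb9 reached 41.6 to 53.4 CPM in line 1, 14.9 to 27.9 in the line labelled p27-null and at most 0.508 in line 2.

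In line 2, Hoxb5 and Hoxb3, genes of hindbrain and trunk patterning, had 0 counts in all 4 libraries, which allows up to 0.0387 CPM (3 counts over the group). Hoxb7, known from the kidney duct system, had 1 count, Hoxb2, a hindbrain gene, had 1, and Hoxb6, a gene of trunk mesoderm, had 2. Hoxb9, known for patterning the thoracic skeleton, had 17 counts, Hoxb4, known for its effect on blood stem cells, had 9, and Hoxb8, a gene that can immortalise myeloid progenitors, had 7. Of the 17 counts of Hoxb9, 9 came from experiment 4 and 6 from experiment 3.

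All 9 members were lower in line 2 than in line 1 (edgeR quasi-likelihood test, adjusted p under 0.05), where 21.9% of all 14392 genes tested were lower. No member was higher, also at an unadjusted p under 0.05 or in DESeq2, where 20.7% of all genes were. All 9 had every line 2 library below every line 1 library, as 20.4% of all genes did. From the summed counts, line 1 exceeded line 2 by 224-fold for Hoxb9, 156-fold for Hoxb4 and 144-fold for Hoxb8. Their log2 fold changes were -7.74 ± 0.36 (SE), -7.20 ± 0.37 and -7.05 ± 0.40 (edgeR adjusted p = 4.9e-09, 1.1e-08 and 2.1e-08). Hoxb3 was at least 205-fold and Hoxb5 at least 111-fold higher in line 1, against a floor of 3 counts over the 4 libraries. The ratio was 573 for Hoxb6, with a 95% counting interval of 158 to 4738. It was 526 (93.9 to 20810) for Hoxb7 and 314 (55.9 to 12440) for Hoxb2, and these intervals cover counting error only. Single line 2 libraries decided these sizes. Without experiment 4 of line 2 the ratio was 367 for Hoxb9 and 270.0 for Hoxb4, and Hoxb2 had 0 counts left (at least 80.7-fold). Without experiment 3 it was 258 for Hoxb8, and Hoxb7 had 0 counts left (at least 134-fold). Hoxb6 reached 887 without experiment 2 and 878 without experiment 3. Other libraries left out lowered the ratios. Without experiment 1 the ratio was 164 for Hoxb9, 99.2 for Hoxb8, 362 for Hoxb7, 395 for Hoxb6 and 216 for Hoxb2. Without experiment 3 it was 119 for Hoxb4. The median member stood at -7.67 on the log2 scale with the genes at 0 set to their bound, and the median gene at 0.02. The median of all 1099 tested genes of chromosome 11, where HoxB lies, was -0.28, and 43.2% of them were lower in line 2, which moves with the HoxB difference and whose part in it was not tested.

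The line labelled p27-null stood far above line 2 across HoxB. All 8 HoxB members were higher (edgeR adjusted p under 0.05), where 19.2% of all genes tested were higher, and their libraries did not overlap, as for 18.4% of all genes. The ratio of summed counts was 104 for Hoxb8, 100.2 for Hoxb9 and 35.9 for Hoxb4. The log2 fold changes were 6.59 ± 0.40, 6.60 ± 0.37 and 5.09 ± 0.41 (edgeR adjusted p = 5.5e-08, 2.5e-08 and 5.9e-07). Hoxb3 was at least 73.3-fold and Hoxb5 at least 70.2-fold higher. Hoxb7, Hoxb6 and Hoxb2, with 1, 2 and 1 counts in line 2, had ratios of 386 (68.9 to 15300), 342 (94.4 to 2834) and 77.5 (13.4 to 3106). The line 2 libraries named above moved these sizes as well. Without experiment 4 the ratio was 164 for Hoxb9, 62.2 for Hoxb4 and at least 19.9 for Hoxb2. Without experiment 3 it was 185 for Hoxb8 and at least 98.7 for Hoxb7. Without experiment 2 or 3 it was 530 or 525 for Hoxb6. Lower ratios were found too. Without experiment 1 the ratio was 73.3 for Hoxb9, 71.3 for Hoxb8, 266 for Hoxb7, 236 for Hoxb6 and 53.4 for Hoxb2. Without experiment 3 it was 27.5 for Hoxb4. The HoxB median was 6.39 with genes at 0 at their bound, against -0.02 for all genes. On chromosome 11, 24.9% of tested genes were higher.

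Between the line labelled p27-null and wild-type line 1, both with an active cluster, the size of the difference varied along HoxB. Of the 9 members, 6 were lower in the line labelled p27-null (edgeR adjusted p under 0.05), where 19.3% of all genes were lower. They were Hoxb2, Hoxb3, Hoxb4, Hoxb6, Hoxb9 and Hoxd8. The same 6 did not overlap between the lines, as 17.8% of all genes did not in that direction. No member was higher, also at an unadjusted p under 0.05 or in DESeq2, where 16.8% of all genes were higher (edgeR adjusted p under 0.05). The HoxB median was -0.94, against -0.01 for all genes. The median of the tested genes of chromosome 11 was -0.20, with 31.5% lower and 6.73% higher, and its part in the HoxB difference was not tested.

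At the 5′ end, Hoxb9 was at 53.4, 51.1, 49.2 and 41.6 CPM in line 1 (experiments 1 to 4) and at 24.6, 14.9, 27.9 and 21.1 CPM in the line labelled p27-null. Every line 1 library lay above every p27-null one. The means were 48.9 ± 5.12 and 22.1 ± 5.55 CPM (SD, n = 4 each), and the log2 fold change was -1.14 ± 0.22 (edgeR adjusted p = 0.0012).

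In the middle of the cluster the lines came closer. Hoxb8 was at 13.5, 13.7, 13.7 and 10.9 CPM in line 1 and at 9.35, 5.92, 11.6 and 10.8 in the line labelled p27-null. Experiment 3 of the latter lay above experiment 4 of line 1, so the groups overlapped, and the difference of -0.46 ± 0.23 did not pass (edgeR adjusted p = 0.132). Hoxb7 was at 6.71, 7.34, 7.70 and 5.19 CPM in line 1 and at 4.87, 3.55, 5.24 and 6.29 in the line labelled p27-null. Its groups overlapped too (-0.43 ± 0.21, edgeR adjusted p = 0.125). Hoxb6 was at 14.4, 15.5, 16.7 and 12.3 CPM in line 1 and at 7.17, 6.51, 10.6 and 11.3 in the line labelled p27-null. These groups did not overlap, though 12.3 and 11.3 CPM lay close, and the difference passed at -0.73 ± 0.20 (edgeR adjusted p = 0.0105).

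Hoxb5, a gene known for placing the shoulder girdle, was at 4.06, 4.17, 4.83 and 4.06 CPM in line 1 and at 2.01, 1.77, 2.49 and 4.56 in the line labelled p27-null. Experiment 4 of the line labelled p27-null lay among the line 1 libraries and the other 3 below them. With all libraries the difference of -0.66 ± 0.28 did not pass (edgeR adjusted p = 0.0948). Without that library it was -1.02 ± 0.20 and passed (edgeR adjusted p = 0.0040).

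The 3′ genes differed by more than the middle ones. Hoxb4 was at 18.8, 16.5, 18.4 and 18.6 CPM in line 1 and at 4.65, 3.14, 4.26 and 4.62 in the line labelled p27-null. The lowest line 1 library was far above the highest p27-null one. The means were 18.1 ± 1.06 and 4.16 ± 0.708 CPM, and the log2 fold change was -2.12 ± 0.24 (edgeR adjusted p = 1.4e-05). Hoxb3 was at 9.06, 7.56, 7.92 and 7.06 CPM in line 1 and at 2.52, 2.13, 3.54 and 3.23 in the line labelled p27-null. It did not overlap (-1.47 ± 0.19, edgeR adjusted p = 0.00016). Hoxb2 was at 5.05, 3.50, 3.98 and 3.56 CPM in line 1 and at 1.43, 0.769, 1.05 and 0.750 in the line labelled p27-null. Its groups were apart as well (-2.003 ± 0.26, edgeR adjusted p = 5.6e-05). Ratios of summed counts were 4.34 for Hoxb4, 4.05 for Hoxb2 and 2.80 for Hoxb3, against 1.36 to 1.67 for Hoxb5 to Hoxb8 and 2.23 for Hoxb9. With 1 library left out at a time, Hoxb2, Hoxb3, Hoxb4, Hoxb6, Hoxb9 and Hoxd8 stayed called in all 12 fits, with edgeR adjusted p up to 0.0352 for Hoxb6. Without both experiment 1 libraries that stood apart, the members passing numbered 6 in this comparison, 8 against line 2 and 9 between the wild-type lines, as with them. The fold changes here were then -1.17 for Hoxb9, -0.67 for Hoxb6, -2.17 for Hoxb4, -1.36 for Hoxb3, -2.12 for Hoxb2 and -4.04 for Hoxd8.

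**Figure D2:**
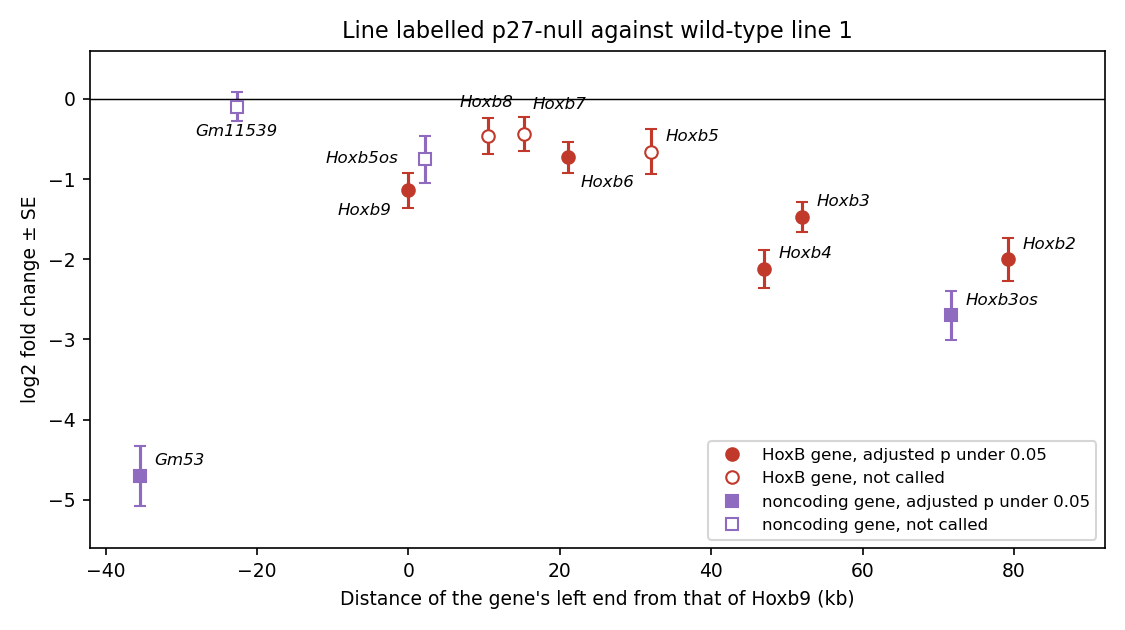
Log2 fold change (± SE) of the line labelled p27-null against wild-type line 1, by distance of each gene's left end from that of Hoxb9 in kb, with filled symbols for edgeR adjusted p under 0.05. Hoxb5 to Hoxb8 lie between -0.43 and -0.73, Hoxb2 to Hoxb4 between -1.47 and -2.12, and the noncoding Gm53, to the left of Hoxb9, at -4.70.

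The make-up of the HoxB output was set side by side between these lines, since library size has no part in a ratio of 2 genes of one library. The count of Hoxb4 over that of Hoxb8 was 1.21 to 1.71 in line 1 and 0.367 to 0.530 in the line labelled p27-null. Hoxb4 exceeded Hoxb8 in 4 of 4 line 1 libraries and in 0 of 4 libraries labelled p27-null. This pair, and the division into 3′ and middle genes below, were chosen after the values were seen, so they describe the fold changes above and have no test. Of the 12 pairs of a 3′ gene (Hoxb2 to Hoxb4) with a middle gene (Hoxb5 to Hoxb8), all 12 ratios separated the lines. Within the middle genes 1 of 6 pairs separated them, within the 3′ genes 1 of 3, and with Hoxb9 4 of 7. Over all pairs of genes tested that had counts in these 8 libraries, 35.2% separated the lines, and pairs that share a gene are not independent. Hoxb9 took 41.5 ± 1.46% of HoxB counts in line 1 and 39.4 ± 4.30% in the line labelled p27-null (SD, n = 4 each), with overlapping ranges. Hoxb4 took 15.5 ± 1.76% and 7.52 ± 0.841%, and Hoxb8 took 10.5 to 11.5% and 15.3 to 17.4%, both without overlap.

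**Figure D3:**
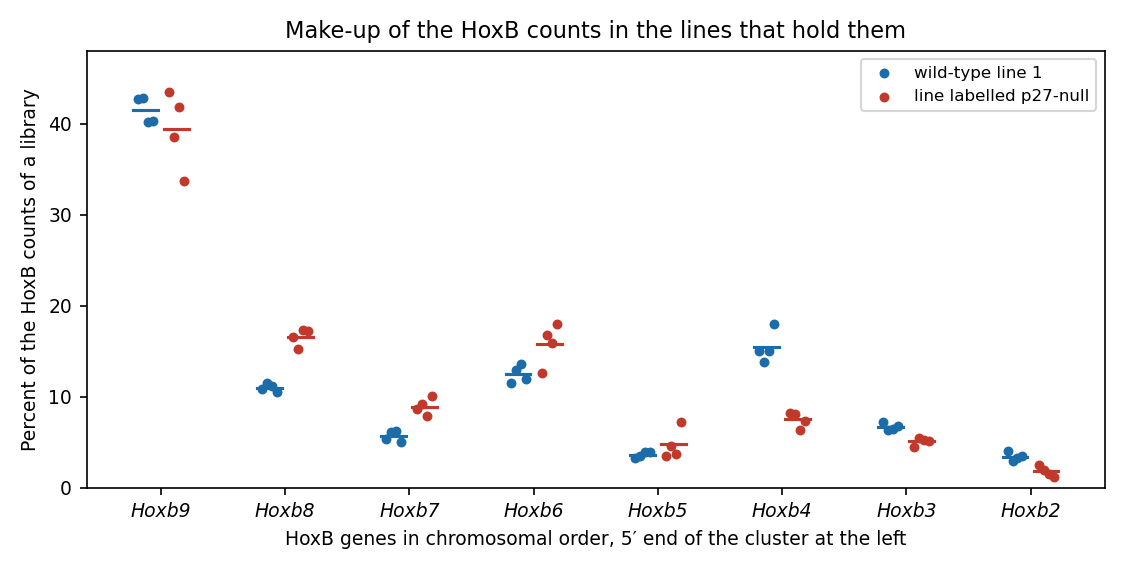
Share of each HoxB gene in the summed HoxB counts of a library (percent), in line 1 and in the line labelled p27-null, with a point per library and a bar at the mean. Hoxb4 lies at 13.8 to 17.98% in line 1 and 6.39 to 8.21% in the line labelled p27-null, and Hoxb8 at 10.5 to 11.5% and 15.3 to 17.4%.

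Levels were also ordered per kilobase of exon, so that genes of different length can be compared. In line 1, Hoxb9 was at 18.05 CPM per kb, Hoxb4 at 7.05, Hoxb6 at 6.35, Hoxb8 at 4.88, Hoxb7 at 4.36, Hoxd8 at 2.91, Hoxb3 and Hoxb5 at 1.54 each and Hoxb2 at 1.15. Ranges over the libraries overlapped for the neighbours Hoxb4 and Hoxb6, Hoxb8 and Hoxb7, Hoxb7 and Hoxd8, and Hoxb3 and Hoxb5. In the line labelled p27-null, Hoxb9 was at 8.18 CPM per kb, Hoxb6 at 3.83, Hoxb8 at 3.55, Hoxb7 at 3.23, Hoxb4 at 1.62, Hoxb5 at 0.972, Hoxb3 at 0.556, Hoxb2 at 0.287 and Hoxd8 at 0.168. Here Hoxb6, Hoxb8 and Hoxb7 overlapped in turn, as did Hoxb4 with Hoxb5, Hoxb5 with Hoxb3, and Hoxb2 with Hoxd8. Hoxb4 was thus in place 2 in line 1 and in place 5 in the line labelled p27-null. In line 2 all members lay at 0.133 CPM per kb or less, and all neighbours overlapped.

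Some of these exons are shared with genes on the opposite strand, and the strand setting of the counting is not given in the sources used here. Of the exon bases, 51.5% of Hoxb3 and 29.7% of Hoxb2 overlap Hoxb3os, and 30.8% of Hoxb6 and 9.48% of Hoxb5 overlap Hoxb5os, so reads of these genes and their antisense partners may not be told apart. Hoxb4, Hoxb7 and Hoxb8 have no such overlap, and Hoxb9 has 1.55%. Overlaps here and below are of GENCODE vM39 exons, and the gene models that were counted may differ. The deposited length was 2048 bases for Hoxb3os, against 6049 of exon, and 1103 for Hoxb5os, against 6899.

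Among noncoding genes of the cluster, Gm53, a long noncoding RNA gene beyond Hoxb9 (96126719 to 96160566), was at 14.1 ± 3.74 CPM in line 1, 0.531 ± 0.194 in the line labelled p27-null and 0.113 ± 0.153 in line 2. Its groups in line 1 and the line labelled p27-null were far apart (-4.70 ± 0.37, edgeR adjusted p = 5.8e-07). Hoxb3os was at 3.04 ± 0.308 CPM in line 1 and 0.456 ± 0.210 in the line labelled p27-null (-2.70 ± 0.31, edgeR adjusted p = 1.6e-05), with 1 count in line 2. Hoxb5os was at 2.69 ± 0.680 and 1.60 ± 0.568 CPM and did not pass (-0.75 ± 0.29, edgeR adjusted p = 0.0621), also with 1 count in line 2. The pseudogene Gm11539, which shares 75.8% of its exon bases with Gm53 on the same strand, was counted in all lines, at 5.21 ± 1.31, 3.65 ± 0.242 and 4.86 ± 0.774 CPM in line 1, line 2 and the line labelled p27-null. Its log2 difference between the wild-type lines was -0.51 ± 0.18 (edgeR adjusted p = 0.0369).

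HoxD followed another pattern, with output in line 1 and little in either of the other lines. Hoxd8, a trunk gene that acts with Hoxb8 and Hoxc8 in vertebral patterning, was at 8.27, 8.29, 10.5 and 7.25 CPM in line 1. It was at 0.332, 0.114, 0.608 and 0.508 CPM in line 2 and at 0.402, 0.296, 0.589 and 0.692 in the line labelled p27-null. The latter lines overlapped each other, and both lay below every line 1 library. Against line 1 the log2 fold change was -4.10 ± 0.31 in the line labelled p27-null and -4.44 ± 0.31 in line 2 (edgeR adjusted p = 3.4e-07 and 1.4e-07). The line labelled p27-null and line 2 differed by 0.34 ± 0.41, which did not pass (edgeR adjusted p = 0.547). Of the exon bases of Hoxd8, 15.1% overlap the antisense gene Hoxd3os1.

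**Figure D4:**
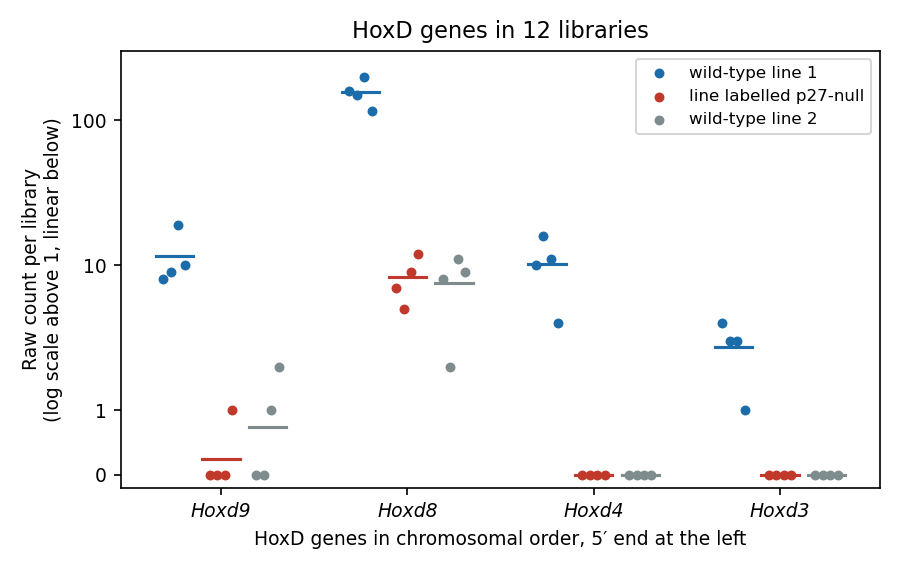
Raw counts per library of the HoxD genes in the table, 4 libraries per line. Hoxd8 had 116 to 197 counts in line 1, 2 to 11 in line 2 and 5 to 12 in the line labelled p27-null, and the other genes reached at most 19.

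The 3 HoxD genes under the count minimum were counted almost wholly in line 1, and none was tested. Hoxd9, a gene of lumbar and proximal limb patterning, had 8, 9, 19 and 10 counts in line 1, 0, 0, 1 and 2 in line 2 and 0, 0, 0 and 1 in the line labelled p27-null. The ratio of line 1 to the line labelled p27-null was 42.8, with a 95% counting interval of 7.30 to 1725, and that to line 2 was 16.5 (5.30 to 82.9). Without experiment 4 of line 2, which held 2 of its 3 counts, the latter was 38.1. Hoxd4, a cervical gene, had 10, 16, 11 and 4 counts in line 1 and 0 in all 8 other libraries, so that line 1 was at least 12.7-fold above the line labelled p27-null and at least 14.7-fold above line 2. Hoxd3, also a cervical gene, had 4, 3, 3 and 1 counts in line 1 and 0 elsewhere (at least 3.41-fold and 3.94-fold). Hoxd3 and Hoxd4 share exon bases on the same strand, 52.0% of those of Hoxd4 being shared with other genes, so their counts are uncertain. The antisense genes of the cluster were also counted mainly in line 1, with 51, 2 and 3 counts of Hoxd3os1 and 10, 0 and 0 of Haglr in line 1, line 2 and the line labelled p27-null.

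Set against both wild-type lines pooled, as the design text counts them (8 libraries against 4), 0 of the 9 members passed in edgeR, where 8.47% of all genes were higher and 10.3% lower. At an unadjusted p under 0.05 edgeR gave 1 lower, Hoxd8, and DESeq2 called the same count. Hoxd8 was at -3.16 ± 1.18 (edgeR adjusted p = 0.0831). It passed without the experiment 2 library of line 2 (-3.35, edgeR adjusted p = 0.0459). The 8 HoxB genes ran from -1.12 ± 1.33 (Hoxb4) to 0.57 ± 1.17 (Hoxb7). No member had the 4 p27-null libraries beyond all 8 wild-type ones, and 6.57% of all genes did so upwards and 7.30% downwards.

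Hoxb9 and Hoxd8 were each compared with all genes tested by Pearson r of log2 CPM over the 12 libraries, which hold 3 lines, so that r is set largely by line means. Highest for Hoxb9 were Ankrd1, a stress-induced ankyrin repeat protein (r = 0.998, mean levels of 95.9, 0.348 and 43.3 CPM in line 1, line 2 and the line labelled p27-null), and the phosphatase gene Ptprj (0.993), Hoxb8, the ephrin ligand gene Efnb2 and Gdpd1 (all 0.992). Highest for Hoxd8 were Nat8l, which makes N-acetylaspartate (r = 0.990, mean levels of 9.50, 0.262 and 0.451 CPM), the coagulation inhibitor gene Tfpi (0.985), Chn2, Myo1e and the actin nucleator gene Cobl (all 0.984). Between Hoxb9 and Hoxd8 themselves r was 0.679.

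Genes tied to Hox function were read from lists. Of 9 TALE homeodomain cofactors, 2 were higher and 6 lower in line 2 than in line 1 (20.7% and 21.9% of all genes). The list median there was -0.89, against 0.02 for all genes. In the line labelled p27-null 4 were higher and 1 lower than in line 1 (16.8% and 19.3% of all genes). Against line 2, 5 were higher and 1 lower (19.2% each). In the pooled comparison 2 were higher and 0 lower (8.47% and 10.3% of all genes), with a list median of 0.21 against -0.03 for all genes. They were Pknox2, at 10.3 CPM against 1.84 in line 1 and 0.747 in line 2 (2.998 ± 0.38, edgeR adjusted p = 0.00015), and Meis3 (1.26 ± 0.26, edgeR adjusted p = 0.0047).

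Of 19 Polycomb group genes, 3 were higher and 3 lower in line 2 than in line 1, and 2 higher and 3 lower in the line labelled p27-null than in line 1. Over all genes 20.7% were higher and 21.9% lower in the former comparison, and 16.8% and 19.3% in the latter, and the list's shares lay below these. The list medians were 0.02 and -0.07. The methyltransferase gene Ezh2 was at 97.3 CPM in line 1, 81.4 in line 2 and 81.8 in the line labelled p27-null. The chromobox gene Cbx2 was lower in line 2 than in line 1 (-1.17 ± 0.14, edgeR adjusted p = 1.8e-05). Another chromobox gene, Cbx6, was higher there (0.76 ± 0.10, edgeR adjusted p = 3.6e-05). Both were chosen after their values were seen. In the pooled comparison, where 8.47% of all genes were higher and 10.3% lower, 1 member passed, Phf19, which binds a mark of active genes within the Polycomb complex (-0.94 ± 0.13, edgeR adjusted p = 0.00028). Of 15 trithorax, cohesin and boundary genes, 1 was higher and 3 lower in line 2 than in line 1 (median 0.04), and 0 higher and 2 lower in the line labelled p27-null than in line 1 (median -0.06). None of these counts exceeds the share over all genes, given above for both comparisons. In the pooled comparison 1 of the 15 was higher and 1 lower, beside 8.47% and 10.3% of all genes. The demethylase gene Kdm6a, which lies on the X chromosome, was lower (-0.90 ± 0.13, edgeR adjusted p = 0.00054) and the adaptor gene Wdr5 higher (0.28 ± 0.08, edgeR adjusted p = 0.0345).

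Of 12 upstream regulators tested, most of them retinoic acid genes, 6 were higher and 3 lower in line 2 than in line 1. In the line labelled p27-null 3 were higher and 2 lower than in line 1. Shares over all genes were 20.7% higher and 21.9% lower, and 16.8% and 19.3%. Against line 2, 2 were higher and 7 lower (19.2% each over all genes). The list includes genes that break down retinoic acid, such as Cyp26b1, so these counts mix opposed roles. In the pooled comparison (8.47% and 10.3% of all genes) 0 were higher and 2 lower, both of the retinoic acid pathway. Cyp26b1, which breaks down retinoic acid, was at 24.7 CPM in line 1, 13.3 in line 2 and 1.96 in the line labelled p27-null (-3.27 ± 0.35, edgeR adjusted p = 3.9e-05). Crabp2, which carries retinoic acid to the nucleus, was at 7.14, 44.96 and 1.66 CPM (-3.97 ± 0.80, edgeR adjusted p = 0.0041). Of the 14 limb and trunk position factors tested, 6 were higher and 4 lower in line 2 than in line 1, beside 20.7% and 21.9% of all genes. In the line labelled p27-null 7 were higher and 7 lower than in line 1, beside 16.8% and 19.3%. In the pooled comparison 5 were higher and 4 lower, beside 8.47% and 10.3% of all genes. The smallest adjusted p belonged to the homeobox genes Emx2 (2.11 ± 0.11) and Meox1 (6.59 ± 0.39) and to Pax9 (-2.37 ± 0.27), with edgeR adjusted p of 1.0e-07, 2.7e-07 and 7.1e-05.

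Of 10 HoxB neighbours tested, 6 were lower and 0 higher in line 2 than in line 1, where 21.9% of all genes and 43.2% of those on chromosome 11 were lower, with a median of -0.34 against -7.67 for HoxB. The largest was the adaptor gene Skap1, next to Hoxb1, at 2.56 CPM in line 1, 0.880 in line 2 and 4.77 in the line labelled p27-null (-1.53 ± 0.25 between the wild-type lines, edgeR adjusted p = 0.00029). The heterochromatin gene Cbx1 was at 83.9, 85.7 and 64.6 CPM, and Snx11 at 19.6, 15.8 and 22.5. Against line 1, 4 of the 10 HoxB neighbours were lower and 1 higher in the line labelled p27-null. Over all genes 19.3% were lower and 16.8% higher there, and on chromosome 11 these shares were 31.5% and 6.73%. The neighbours had a median of -0.21, against -0.94 for HoxB. Of 8 HoxD neighbours tested, 3 were higher and 0 lower in the line labelled p27-null than in line 1, beside 16.8% and 19.3% of all genes, and on chromosome 2 as a whole 29.7% of tested genes were higher. Lnpk and Mtx2, on either side of HoxD, were at 46.6 and 38.4 CPM in line 1, 43.3 and 42.7 in line 2 and 53.0 and 47.8 in the line labelled p27-null.

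Hox genes of the other clusters were split by line as well. Of 13 tested Hoxa and Hoxc genes, 12 were lower and 1, Hoxc13, higher in line 2 than in line 1, beside 21.9% and 20.7% of all genes. In the line labelled p27-null 5 were higher and 2 lower than in line 1, beside 16.8% and 19.3%.

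Of the endothelial markers, Kdr had the order of HoxB over the lines. Pecam1 did not, with means of 0.222, 0.154 and 0.103 CPM in line 1, line 2 and the line labelled p27-null. Only Kdr and Pecam1 of 4 were in the table, summed at 5.50 to 13.1 CPM in line 1, 0.332 to 0.508 in line 2 and 0.516 to 2.08 in the line labelled p27-null. Nearly all of it was Kdr, a receptor for vascular growth factor, while Pecam1 stayed at or below 0.334 CPM in all libraries. Neural and glial markers (2 of 5 in the table) summed to 13.4 to 20.4 CPM in line 1, 7.17 to 12.3 in line 2 and 5.86 to 14.9 in the line labelled p27-null. Blood and macrophage markers (2 of 4) summed to 3.23 to 4.31, 2.28 to 3.22 and 2.03 to 2.60 CPM. Both were thus highest in line 1 as well, though neural and glial markers overlapped between line 1 and the line labelled p27-null. The part of these markers in the HoxB result was not tested. Epithelial markers (2 of 5) reached 1.49 CPM. None of the 4 skeletal muscle markers was in the table.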

How the data were processed

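Bulk RNA-seq of 12 libraries (3 lines, 4 experiments each, grouped by title) was read from 1 deposited table. Per the submitters' processing notes, reads were checked with FastQC and aligned with STAR 2.5.4a to GRCm39; per the design text they were counted on GENCODE genes. Strand setting, row filter and annotation release: not given in the sources used here. Per the file headers, the authors deposited raw counts per gene, their CPM and their log2 CPM. The authors also deposited a comparison of their own, which gives for each gene a mean signal, a test score, a p-value and a log2 fold change.

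Counts were used as deposited. Of 15207 entries, 51 had no gene name and were excluded from library sizes; they held 2.04 to 5.25% of a library's counts. CPM here means counts in named genes over their TMM-scaled total, per 1 M. Genes were tested with edgeR 4.0.16 (R 4.3.3; filterByExpr, TMM, quasi-likelihood F tests, two-sided) with Benjamini-Hochberg adjustment over 14392 genes at a threshold of 0.05. The lines were compared in 1 fit with 1 mean per line over all 12 libraries, and the pooled comparison had 2 means. All 9 members passed the filter; Hoxd9, Hoxd4 and Hoxd3 did not and were not tested. Standard errors are the size of the log2 fold change over the square root of F. Counting intervals (95%, exact) compare summed counts. Exon unions, coordinates (from 1) and overlaps came from GENCODE vM39. The tests were checked on simulated counts, in which no changed gene was almost without counts in a line. That check does not cover the HoxB comparisons with line 2. Duplicate libraries were sought: counts of libraries of a line differed beyond sampling noise (chi-square over its degrees of freedom, 10.3 to 66.5), and none was dropped. Other steps used Python 3.11.15.

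Members, lists and tests were chosen with earlier results of these data known. All members were named; of each list, up to 3 genes with the smallest pooled adjusted p, flanking and noncoding genes freely, and the 5 genes most alike to Hoxb9 and Hoxd8 in log2 CPM (prior count 2). Others named from the lists (Ezh2, Cbx2, Cbx6 and Hoxc13) were chosen after their values were seen. Alternatives were DESeq2 1.42.0 and its size factors, no filter, an experiment block, each library left out, both experiment 1 libraries that stood apart left out, a contrast of line means and other gene lengths.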

Additional observations from a re-analysis of the deposited data

Results flagged for a closer look

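A library far from the others of its line, by Dixon's test at a critical value of 0.829, was found in 4 of 25 combinations of gene and line. Chance gives about 1 in 20 for continuous values, but a single count beside zeros meets the test by construction, as in 2 of the 4, so the number is no measure of excess. Hoxb8 in wild-type line 1 was at 10.9 CPM in experiment 4, with the others at 13.5 to 13.7. Hoxb5 in line 1 was at 4.83 CPM in experiment 3, with the others at 4.06 to 4.17. In line 2, Hoxb7 was at 0.0553 CPM in experiment 3 and Hoxb2 at 0.0564 CPM in experiment 4, each a single count beside 3 libraries at 0.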

How the results depend on the processing

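Of 621 values of a member's log2 fold change under an alternative, 601 kept direction and side of the threshold, 9 passed it newly in the same direction and 11 changed sign, of which 4 passed it as well (Hoxb9, Hoxb4, Hoxb3 and Hoxb2 in the contrast of line means). All 11 sign changes lay in the pooled comparison, where no member had passed. A contrast of the line labelled p27-null with the mean of both wild-type line means averages log levels, so line 2, near 0, carries weight by construction; there 8 members were higher and 1 lower, against 0 and 0 in the pooled fit (over all genes 2449 and 2422, against 1219 and 1481). Hoxb9 was then at 2.73, Hoxb4 at 1.49, Hoxb3 at 3.61, Hoxb2 at 1.83 and Hoxd8 at -1.88. Hoxb9 was at 0.0494 without the experiment 1 libraries that stood apart. With 1 library left out at a time, the pooled value ran from -0.34 to 0.11 for Hoxb9 and from -0.0196 to 0.63 for Hoxb5; the cause was not tested. The pooled count of lower members was 1 in DESeq2 (Hoxd8, -3.18, DESeq2 adjusted p = 0.0055) and 0 to 1 over the left-out libraries. Against line 1 the count of lower members was 6 to 7 over those libraries. With the experiment number as a block, Hoxb5 passed against line 1 (-0.73, edgeR adjusted p = 0.0454), for 7 lower members, and the block changed no other member's call. Numbers were not taken as pairs: deviations of same-numbered libraries correlated at 0.0421 to 0.750 (12 pairs), not all above the level set for pairing, though 9 of 12 libraries correlated best with their own number. The order per kilobase of the longest transcript put Hoxb6 before Hoxb4 and Hoxb7 before Hoxb8 in line 1, and Hoxb7 before Hoxb8 in the line labelled p27-null. With the deposited gene length, an alternative chosen after seeing the data, Hoxd8 (557 bases, against 2944 of exon) took place 2 in line 1, at 15.4 CPM per kb. Depth limits line 2, where 1 count is a large share of any HoxB level.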

Other observations

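The authors' deposited table gives mean signals for HoxD that the 12 libraries do not return. For Hoxd8 the authors' deposited table has a mean signal of 357, where the scaled counts of the 12 libraries average 56.8, a ratio of 6.28. The ratio was 26.9 for Hoxd9, 18.1 for Hoxd3 and 9.08 for Hoxd4. For the 8 HoxB members it was 1.12 to 1.45, and over 15144 genes its median was 1.02, with 10th and 90th percentiles of 0.895 and 1.17 and a 99th percentile of 3.89. The authors' deposited table lists log2 fold changes of -3.20 for Hoxd8, -4.15 for Hoxd9, -4.61 for Hoxd4 and -2.73 for Hoxd3, with adjusted p of 0.0026, 0.0041, 0.0063 and 0.0710. In the authors' deposited table no HoxB member had an adjusted p under 0.537. Which libraries enter that signal was not stated.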
